A study of Mus musculus with 12 samples.

Results

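RNA levels of 10 genes of the T helper 1 (Th1) programme were compared across 4 sorted mouse CD4 T cell subsets. The genes are Tbx21, Eomes, Runx3, Hopx and Stat4 (regulators), Il12rb1 and Il12rb2 (the IL-12 receptor), Il18r1 and Il18rap (the IL-18 receptor) and Ifng (the cytokine). They were taken by name from a table of read counts with 54532 entries, and each name stood on 1 entry. The data are 12 total RNA libraries, 3 per subset, from mixed spleen and lymph node of untreated wild-type C57BL/6 mice that carry a Foxp3-GFP reporter and a polyclonal T cell repertoire. Anergic cells were CD44high without FOXP3, with high CD73 and FR4 and with NRP1. Treg cells were sorted on FOXP3 and CD25. Teff (effector) cells were CD44high without FOXP3, with low CD73 and FR4. Naive cells had low CD44. CD44 marks antigen-experienced T cells, anergic T cells are antigen-experienced cells that respond poorly to antigen, and Treg are FOXP3-dependent suppressor cells. The labels do not say whether the 3 libraries of a subset came from separate or pooled animals, and each p-value therefore reflects library-to-library spread alone, which may be technical.

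Libraries held 6909035 to 9527897 counts. Of the 28629 entries with a count, 13393 had enough counts to be tested, among them 9 of the 10 genes (Il12rb1 did not pass the filter on low counts). Levels are given as CPM (counts scaled to library size) after TMM scaling, which corrects for library composition. Differences were tested with edgeR's quasi-likelihood F test, two-sided, with Benjamini-Hochberg adjustment over all 13393 genes, and "higher", "lower" or "called" refers to an adjusted p under 0.05. The Foxp3 level was 18.2 ± 2.82 CPM in Anergic, 543 ± 16.3 in Treg cells, 0.734 ± 0.331 in Teff cells and 1.36 ± 0.222 in Naive cells (SD, n = 3 per subset). The summed level of 7 CD4 T cell identity markers averaged 4261 CPM in Anergic, 2704 in Treg cells, 3012 in Teff cells and 3133 in Naive cells, and that of Cd8a and Cd8b1 averaged 5.37, 10.9, 4.68 and 15.4 CPM in the same order.

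Th1 cells are the CD4 T cells that make interferon gamma, the cytokine encoded by Ifng, against intracellular microbes. IL-12 signals through a receptor of the Il12rb1 and Il12rb2 chains to the kinases JAK2 and TYK2 and on to STAT4. T-bet, the product of Tbx21, drives the programme, with Eomes and Runx3 as partners, and it induces Il12rb2 and the IL-18 receptor. IL-18 signals through the Il18r1 and Il18rap chains and MyD88 and acts together with IL-12 on Ifng.

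The start regions of 5 of these genes are shown because the results below turn on these genes: Ifng as the cytokine, Il12rb2 as the receptor gene with the widest difference, Il18r1 and Il18rap as adjacent genes with different patterns, and Runx3 as the 1 regulator lower in Anergic than in Naive cells. Each is the 250 bases before the RefSeq transcript start on GRCm38.p6, written 5′ to 3′ on the gene's strand, with motif matches in capitals. The windows are Ifng at chr10:118440796-118441045, plus strand, Il12rb2 at chr6:67376189-67376438, minus strand, Il18r1 at chr1:40465302-40465551, plus strand, Il18rap at chr1:40515112-40515361, plus strand, and Runx3 at chr4:135120395-135120644, plus strand.
Ifng: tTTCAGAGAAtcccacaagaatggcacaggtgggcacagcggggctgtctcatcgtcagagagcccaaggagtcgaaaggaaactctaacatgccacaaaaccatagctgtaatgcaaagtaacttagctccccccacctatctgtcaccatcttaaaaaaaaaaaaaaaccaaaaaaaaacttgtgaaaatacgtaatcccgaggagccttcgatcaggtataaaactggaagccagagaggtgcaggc
Il12rb2: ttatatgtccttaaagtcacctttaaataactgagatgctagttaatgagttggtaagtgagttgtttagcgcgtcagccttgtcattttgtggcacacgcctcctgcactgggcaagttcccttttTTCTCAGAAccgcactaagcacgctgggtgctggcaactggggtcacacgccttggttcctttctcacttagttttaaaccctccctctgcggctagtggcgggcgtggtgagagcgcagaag
Il18r1: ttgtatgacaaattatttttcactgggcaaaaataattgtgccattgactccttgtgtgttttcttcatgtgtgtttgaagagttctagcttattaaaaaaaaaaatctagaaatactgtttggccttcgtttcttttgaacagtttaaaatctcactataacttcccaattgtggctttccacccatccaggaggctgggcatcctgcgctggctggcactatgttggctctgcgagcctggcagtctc
Il18rap: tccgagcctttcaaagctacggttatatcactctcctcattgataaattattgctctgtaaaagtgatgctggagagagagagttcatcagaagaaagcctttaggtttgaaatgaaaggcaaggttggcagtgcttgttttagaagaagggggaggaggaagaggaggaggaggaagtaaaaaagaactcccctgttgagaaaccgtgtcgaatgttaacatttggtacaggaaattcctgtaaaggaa
Runx3: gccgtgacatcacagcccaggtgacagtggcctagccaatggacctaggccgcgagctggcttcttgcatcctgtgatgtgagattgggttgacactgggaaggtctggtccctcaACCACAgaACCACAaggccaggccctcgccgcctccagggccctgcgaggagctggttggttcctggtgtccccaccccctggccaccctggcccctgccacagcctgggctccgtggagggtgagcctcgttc
Entries for 9 of the 10 genes were matched by symbol, and 4 motifs were searched on both strands. The STAT motif TTCNNNGAA was found in Ifng, 240 bases before the start, and in Il12rb2, 114 bases before it. That motif is present in 7.02% of 32851 promoter windows of the same length. The RUNX motif TGTGGT was found at 2 places in Runx3, 128 and 120 bases before the start, both on the reverse strand, so the capitals read as its complement. It is present in 14% of the windows. The RefSeq start of Runx3 was not found at a GENCODE M21 transcript start, so its distances hold for the RefSeq start. The T-box motif AGGTGTGA (1.12% of windows) and the AP-1 motif TGANTCA (6.75%) were in none of the 9 windows, which says only that these letters are not there. No match overlapped another.

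Teff cells held the highest mean level of 7 of the 9 tested genes. Of these, all but Stat4 (Tbx21, Ifng, Il12rb2, Il18r1, Il18rap and Runx3) were called higher in Teff cells than in each other subset. The share of all tested genes with such a joint call was not counted, so nothing is read from their number. The shares below are for single comparisons. Against Teff cells, Anergic cells had 7 of the 9 tested genes lower and 0 higher, where 12.7% of all tested genes were lower and 26.6% were called in either direction. The 2 that were not called, Eomes and Stat4, had libraries that overlapped between Anergic and Teff cells. Against Treg cells, Anergic cells had 8 of the 9 higher and 1 (Hopx) lower, in a comparison with 31.0% of genes called and 15.6% higher. Against Naive cells, Anergic cells had 7 higher and 1 (Runx3) lower, with 46.2% called and 25.0% higher. The median log2 fold change of the 9 genes was -1.26, 0.91 and 1.95 in these 3 comparisons, against 0.00, 0.00 and 0.01 over all tested genes.

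Teff cells had all 9 tested genes higher than Naive cells, where 34.9% of genes were called, 19.2% higher and 15.7% lower. Treg cells had 5 higher and 2 lower than Naive cells (32.8% called), and 8 lower and 0 higher than Teff cells (29.1% called, 14.1% lower). The comparisons share libraries, so they are not independent of each other. With scaling by total counts alone, the calls over all genes were 1218 higher and 2276 lower for Anergic against Teff (1864 and 1702 with TMM), 1324 higher and 3027 lower for Anergic against Treg (2096 and 2054), and 2925 higher and 1126 lower for Treg against Naive (2538 and 1858). For Anergic against Treg this scaling moved the median of all genes by -0.131 on the log2 scale. In bulk RNA, fewer cells with a transcript and less of it per cell cannot be told apart.

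**Figure D1:**
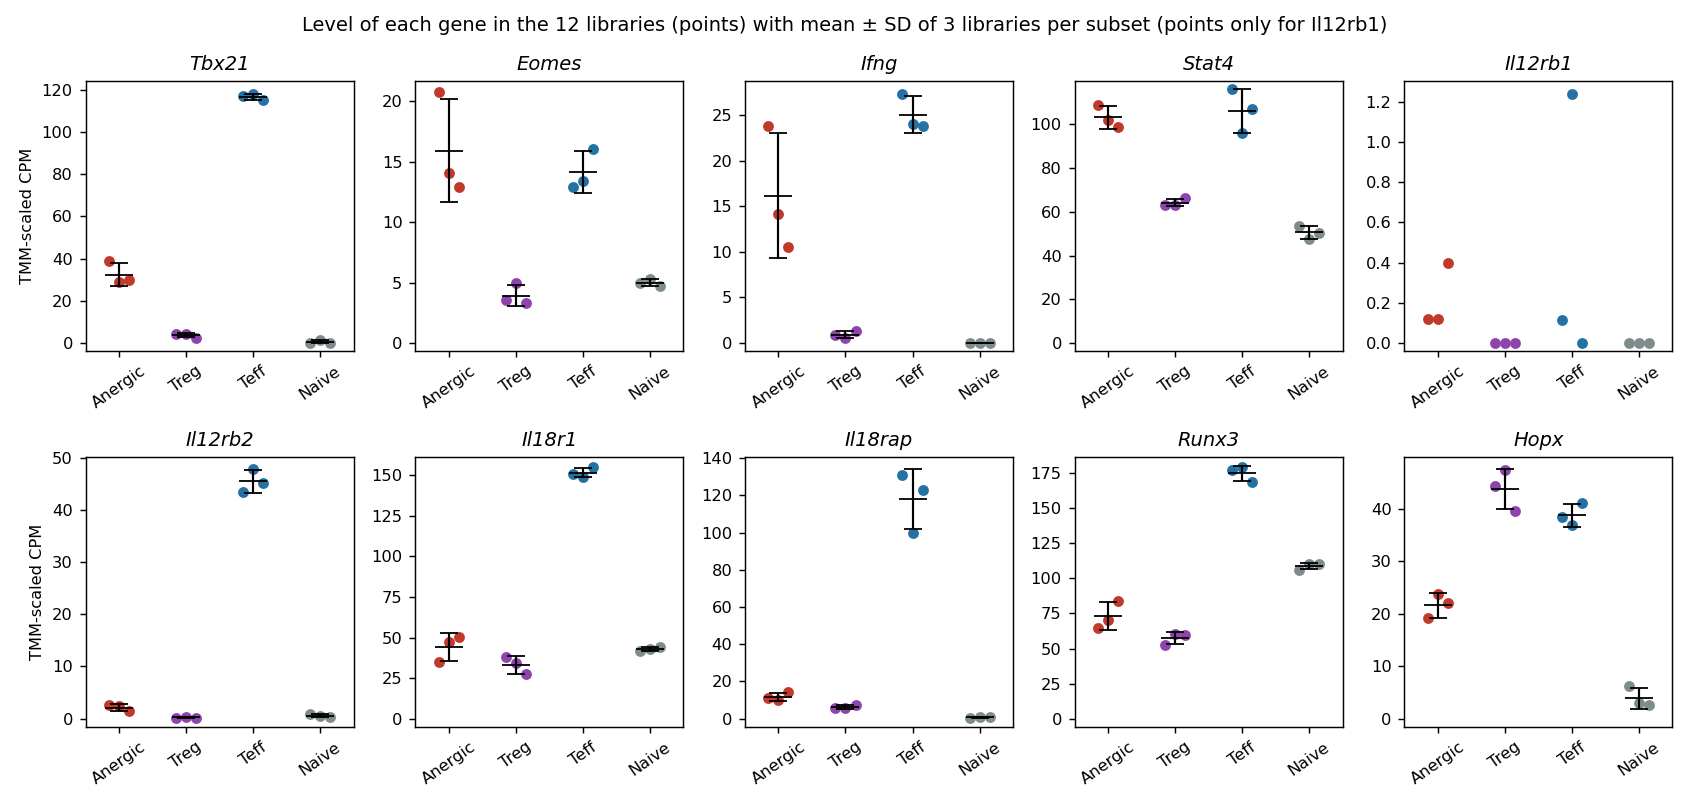
Level of each of the 10 genes in CPM (vertical axes, 1 panel per gene) in the 3 libraries of each subset (horizontal axis), with mean ± SD bars except for Il12rb1, which is shown as points only. Tbx21 sits at 115 to 118 CPM in Teff libraries and at 28.9 to 38.7 CPM in Anergic libraries, while Eomes and Stat4 overlap between these subsets.

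Tbx21 (chr11:97098071-97115331, minus strand, GRCm38) encodes T-bet, the T-box factor that defines Th1 cells. Its level was 38.7, 28.9 and 29.7 CPM in the Anergic libraries, 4.14, 4.18 and 2.47 CPM in Treg, 117, 118 and 115 CPM in Teff and 0.138, 1.61 and 0.152 CPM in Naive libraries. No 2 subsets overlapped, and the order was Teff, Anergic, Treg, Naive. Anergic cells were 3.6-fold below Teff cells (log2 fold change -1.85, SE 0.127, adjusted p = 4.42e-11) and 8.96-fold above Treg cells (log2 fold change 3.16, SE 0.197, adjusted p = 5.79e-12). Treg cells were 32.2-fold below Teff cells (adjusted p = 1.13e-16). Against Naive cells, the level was 46.5-fold higher in Anergic (adjusted p = 7.55e-14), 5.19-fold higher in Treg (adjusted p = 0.000164) and 167-fold higher in Teff cells (adjusted p = 2.73e-17). These last folds rest on Naive library 2, which held most of the few Naive counts: without it they were 204-fold, 22.6-fold and 729-fold, and all 3 stayed called.

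Eomes (chr9:118478212-118486132, plus strand), the other T-box factor of T cells, followed another order. Its level was 20.8, 14.1 and 12.9 CPM in the Anergic libraries, 3.54, 4.94 and 3.29 CPM in Treg, 12.9, 13.4 and 16.1 CPM in Teff and 4.96, 5.33 and 4.71 CPM in Naive libraries. Anergic and Teff libraries were both above all Treg and Naive libraries and overlapped with each other. The difference between Anergic and Teff cells was 0.18 on the log2 scale (95% interval -0.18 to 0.54, adjusted p = 0.494), and that between Treg and Naive cells was -0.36 (95% interval -0.87 to 0.14, adjusted p = 0.277). Anergic cells were 4.1-fold above Treg cells (log2 fold change 2.03, SE 0.204, adjusted p = 2.57e-08) and 3.18-fold above Naive cells (adjusted p = 2.63e-07). Teff cells were 2.8-fold above Naive cells (adjusted p = 2.81e-06), and Treg cells were 3.61-fold below Teff cells (adjusted p = 1.29e-07).

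The balance of the 2 T-box factors was compared within each library after dividing each level by its exon length. Eomes over Tbx21, as a ratio of CPM per kb, was 0.26, 0.292 and 0.322 in the Anergic libraries, 0.511, 0.708 and 0.798 in Treg and 0.0656, 0.0677 and 0.0838 in Teff libraries, in rising order within each subset. These 3 subsets did not overlap. The mean log2 ratio differed by 2.01 between Anergic and Teff cells and by -1.19 between Anergic and Treg cells (exact two-sided permutation test, p = 0.1 for both, the smallest that 3 against 3 libraries allow, and 0.117 after Benjamini-Hochberg adjustment over 21 ratio tests). In Naive cells the ratio rests on few Tbx21 counts and ran from 1.98 to 21.6.

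**Figure D2:**
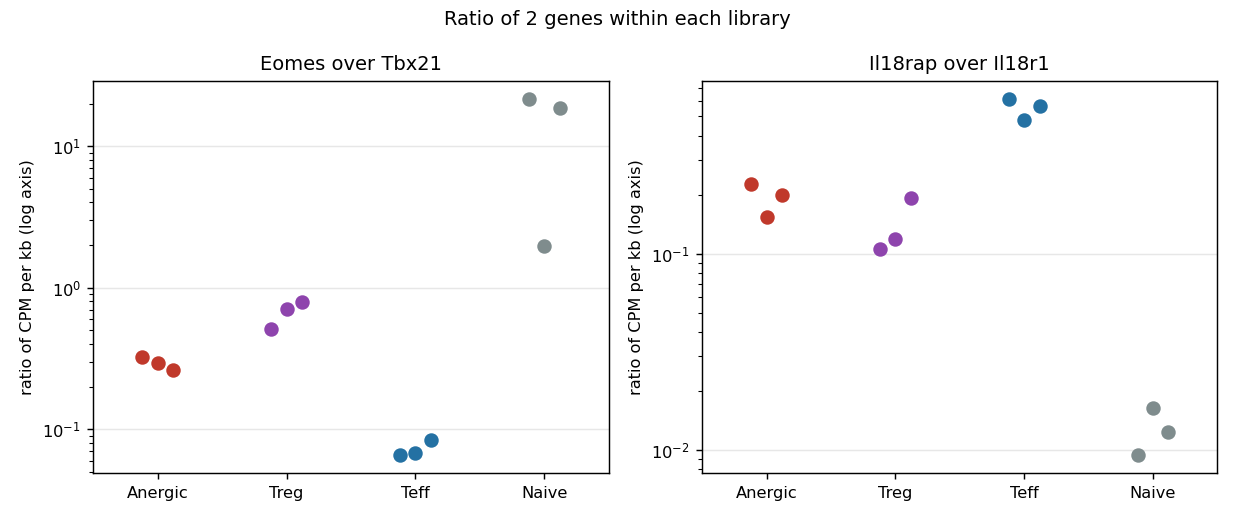
Ratio of CPM per kb for pairs of genes (log vertical axes) in each library, by subset (horizontal axis). Eomes over Tbx21 lies between 0.26 and 0.322 in Anergic libraries and between 0.0656 and 0.0838 in Teff libraries, and Il18rap over Il18r1 is highest in Teff libraries, at 0.482 to 0.615.

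Runx3 (chr4:135120652-135177990, plus strand), a Runt-family factor that works with T-bet at Ifng, was the 1 gene of the 9 tested that was lower in Anergic cells than in Naive cells. Its level was 64.7, 70.4 and 84.1 CPM in the Anergic libraries, 52.7, 60.3 and 59.6 CPM in Treg, 177, 179 and 169 CPM in Teff and 106, 110 and 110 CPM in Naive libraries. The subsets did not overlap, and Naive cells came after Teff cells and ahead of both Anergic and Treg cells. Anergic cells were 2.4-fold below Teff cells (log2 fold change -1.26, SE 0.0786, adjusted p = 7.34e-12) and 1.49-fold below Naive cells (log2 fold change -0.57, SE 0.0806, adjusted p = 2.44e-06). The Treg level was 1.89-fold below Naive (adjusted p = 2.54e-09) and 3.04-fold below Teff (adjusted p = 7.62e-14), and Teff was 1.61-fold above Naive (adjusted p = 1.13e-07). Anergic cells were 1.27-fold above Treg cells (adjusted p = 0.0023), a call that was lost with scaling by total counts (log2 fold change 0.21, adjusted p = 0.0596).

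Hopx (chr5:77086988-77115121, minus strand), a homeodomain protein without DNA binding that is known from persisting Th1 memory cells, had its highest mean in Treg cells. Its level was 19.1, 23.8 and 22 CPM in the Anergic libraries, 44.3, 47.3 and 39.6 CPM in Treg, 38.4, 36.8 and 41.1 CPM in Teff and 6.2, 2.97 and 2.58 CPM in Naive libraries. Treg and Teff libraries overlapped, Anergic libraries lay below both, and Naive libraries were lowest. Anergic cells were 1.79-fold below Teff cells (log2 fold change -0.84, SE 0.133, adjusted p = 2.57e-05), 2.02-fold below Treg cells (log2 fold change -1.02, SE 0.131, adjusted p = 1.31e-06) and 5.49-fold above Naive cells (adjusted p = 1.6e-10). Treg and Teff cells were 11.1-fold and 9.83-fold above Naive cells (adjusted p = 9.28e-14 and 3.56e-13), and Treg differed from Teff by 0.17 on the log2 scale (95% interval -0.08 to 0.43, adjusted p = 0.327). Hopxos, on the opposite strand of 27.2% of the Hopx exon length, was at 1.47 CPM in Anergic, 3.82 in Treg cells, 2.49 in Teff cells and 0.0873 in Naive cells. Because the strand setting of the counting is unknown, its reads cannot be told apart from those of Hopx where they overlap.

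Stat4 (chr1:51987148-52107189, plus strand), the transcription factor that IL-12 activates, varied least of the 9 tested genes. Its level was 109, 102 and 98.8 CPM in the Anergic libraries, 63.1, 63.3 and 66.2 CPM in Treg, 116, 95.9 and 107 CPM in Teff and 53.5, 47.7 and 50.5 CPM in Naive libraries. Anergic and Teff libraries overlapped and were above all Treg libraries, which were above all Naive libraries. Between Anergic and Teff cells the log2 difference was -0.04 (95% interval -0.19 to 0.11, adjusted p = 0.739). Anergic cells were 1.61-fold above Treg cells (adjusted p = 7.74e-08) and 2.05-fold above Naive cells (log2 fold change 1.03, SE 0.077, adjusted p = 6.83e-11). Teff cells were 2.1-fold above Naive cells (adjusted p = 5.29e-11), Treg cells 1.27-fold above Naive cells (adjusted p = 0.00138) and 1.66-fold below Teff cells (adjusted p = 2.8e-08). Gm28177 and Gm3940, which overlap 26.7% of the Stat4 exon length, were at 0.175 to 0.726 CPM in the 4 subsets.

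Il12rb2 (chr6:67291318-67376188, minus strand), the signalling chain of the IL-12 receptor, had the largest difference between Anergic and Teff cells among the 9 tested genes. Its level was 2.59, 2.35 and 1.46 CPM in the Anergic libraries, 0.202, 0.38 and 0.118 CPM in Treg, 43.5, 47.8 and 45.1 CPM in Teff and 0.827, 0.496 and 0.304 CPM in Naive libraries. Teff libraries stood far above all others, Anergic libraries came next, and Treg and Naive libraries overlapped. Anergic cells were 20.9-fold below Teff cells (log2 fold change -4.39, SE 0.179, adjusted p = 3.6e-15), 8.91-fold above Treg cells (log2 fold change 3.16, SE 0.438, adjusted p = 3.87e-06) and 3.86-fold above Naive cells (adjusted p = 0.000177). Teff cells were 80.8-fold above Naive cells (adjusted p = 2.29e-16), and Treg cells were 187-fold below Teff cells (adjusted p = 6.5e-17). For Treg against Naive cells the log2 difference was -1.21 (95% interval -2.47 to 0.06, adjusted p = 0.159). Serbp1 lies on the opposite strand of 40% of the Il12rb2 exon length and was at 627 CPM in Anergic, 693 in Treg cells, 706 in Teff cells and 734 in Naive cells.

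Il12rb1, the chain that the IL-12 and IL-23 receptors share, had almost no counts. It was listed with 1, 1 and 3 counts in the Anergic libraries, 0 in each Treg library, 1, 10 and 0 counts in Teff and 0 in each Naive library. Of the 11 Teff counts, 10 came from 1 library, so no level is read from them. After these counts were seen, its chromosomal surroundings were examined. Il12rb1 (chr8:70808449-70821424, plus strand, GRCm38) lies in a run of 11 protein-coding genes, from Jund to Kcnn1 (chr8:70698949-70863258), that together hold 247 counts over all 12 libraries. The run was set by a limit of under 200 counts per gene. Only genes with an entry of that name among the counts were considered, so others may lie between them. Jund, an AP-1 subunit transcribed in most cell types, had 4 to 11 counts per library, and Mpv17l2, which encodes a mitochondrial protein, was among 5 genes of the run with 0 in every library. The genes next to the run, Lsm4 and Ccdc124, had 87 to 182 and 278 to 446 counts per library. The low counts of Il12rb1 thus go together with low counts of the other genes of the run, the cause was not tested, and a 0 here is not read as absence of the receptor chain.

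The IL-18 receptor chains differed from each other. Il18r1, the chain that binds IL-18, was at 34.7, 47.5 and 50.6 CPM in the Anergic libraries, 38.2, 34.2 and 27.4 CPM in Treg, 151, 149 and 155 CPM in Teff and 41.8, 43 and 44.2 CPM in Naive libraries. Only the Teff libraries stood apart from all others, and Anergic libraries overlapped with Treg and with Naive libraries. Anergic cells were 3.43-fold below Teff cells (log2 fold change -1.78, SE 0.103, adjusted p = 1.82e-12), and Teff cells were 3.53-fold above Naive cells (adjusted p = 1.03e-12) and Treg cells 4.54-fold below Teff cells (adjusted p = 4.36e-14). Against Naive cells, the Anergic difference was 0.04 on the log2 scale (95% interval -0.20 to 0.27, adjusted p = 0.803). Anergic cells were 1.32-fold above Treg cells (adjusted p = 0.00824), but the call was lost without Anergic library 3 (adjusted p = 0.0636), without Treg library 3 (0.0693) and with scaling by total counts (0.073). Treg cells were 1.29-fold below Naive cells (adjusted p = 0.0178), and this call was lost without Treg library 3 (0.135), without Naive library 3 (0.054) and with scaling by total counts (0.0683).

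Il18rap, the accessory chain needed for IL-18 signalling, covered a wider range. Its level was 11.1, 10.2 and 14.1 CPM in the Anergic libraries, 5.66, 5.7 and 7.41 CPM in Treg, 131, 100 and 123 CPM in Teff and 0.551, 0.991 and 0.759 CPM in Naive libraries. No 2 subsets overlapped. Anergic cells were 10-fold below Teff cells (log2 fold change -3.33, SE 0.121, adjusted p = 6.5e-16), 1.88-fold above Treg cells (log2 fold change 0.91, SE 0.169, adjusted p = 0.000157) and 14.8-fold above Naive cells (adjusted p = 2.54e-11). Teff and Treg cells were 149-fold and 7.91-fold above Naive cells (adjusted p = 6.53e-19 and 3.58e-08), and Treg cells were 18.9-fold below Teff cells (adjusted p = 1.5e-17). Both chains are encoded on the plus strand of chromosome 1, Il18r1 at chr1:40465552-40500854 and Il18rap at chr1:40515362-40551705, 14507 bases apart. Per kb of exon, Il18rap over Il18r1 was 0.153 to 0.227 in Anergic libraries, 0.106 to 0.193 in Treg, 0.482 to 0.615 in Teff and 0.00942 to 0.0164 in Naive libraries. Anergic and Treg libraries overlapped in this ratio (exact two-sided permutation test, p = 0.2), and each other pair of subsets was separate (p = 0.1, the smallest possible, 0.117 adjusted over the 21 ratio tests).

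Ifng (chr10:118441046-118445892, plus strand), the output of the programme, was present in both FOXP3-negative CD44high subsets. Its level was 23.8, 14.2 and 10.5 CPM in the Anergic libraries, 0.909, 0.507 and 1.29 CPM in Treg, 27.4, 24 and 23.8 CPM in Teff and 0 in each Naive library. Anergic library 1 and Teff library 3 were equal at 3 digits, while the other Anergic libraries lay below all Teff libraries. Anergic cells were 1.54-fold below Teff cells (log2 fold change -0.63, SE 0.202, adjusted p = 0.0241). This call was lost without Anergic library 2 (adjusted p = 0.103), Anergic library 3 (0.133) or Teff library 1 (0.0828), and without Anergic library 1 the log2 fold change was -1.02 with an adjusted p of 0.00016. Anergic cells were 17.5-fold above Treg cells (log2 fold change 4.13, SE 0.328, adjusted p = 1.35e-09), and Treg cells were 27.1-fold below Teff cells (adjusted p = 5.26e-11). Against a floor of 3 counts over the 3 Naive libraries (0.137 CPM), the level was at least 120-fold higher in Anergic (adjusted p = 5.87e-11), at least 6.67-fold higher in Treg (adjusted p = 0.00249) and at least 184-fold higher in Teff cells (adjusted p = 7.88e-12). The floor covers counting error only. Gm49751 is annotated over 25.9% of the Ifng exon length on the same strand and had no entry under that name among the counted genes. Per kb of exon, Ifng over Tbx21 was 0.681 to 1.18 in Anergic libraries and 0.39 to 0.448 in Teff libraries, which did not overlap (exact permutation p = 0.1, 0.117 adjusted), and 0.233 to 1.01 in Treg libraries, which overlapped with Anergic (p = 0.3) and with Teff libraries (p = 0.8).

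**Figure D3:**
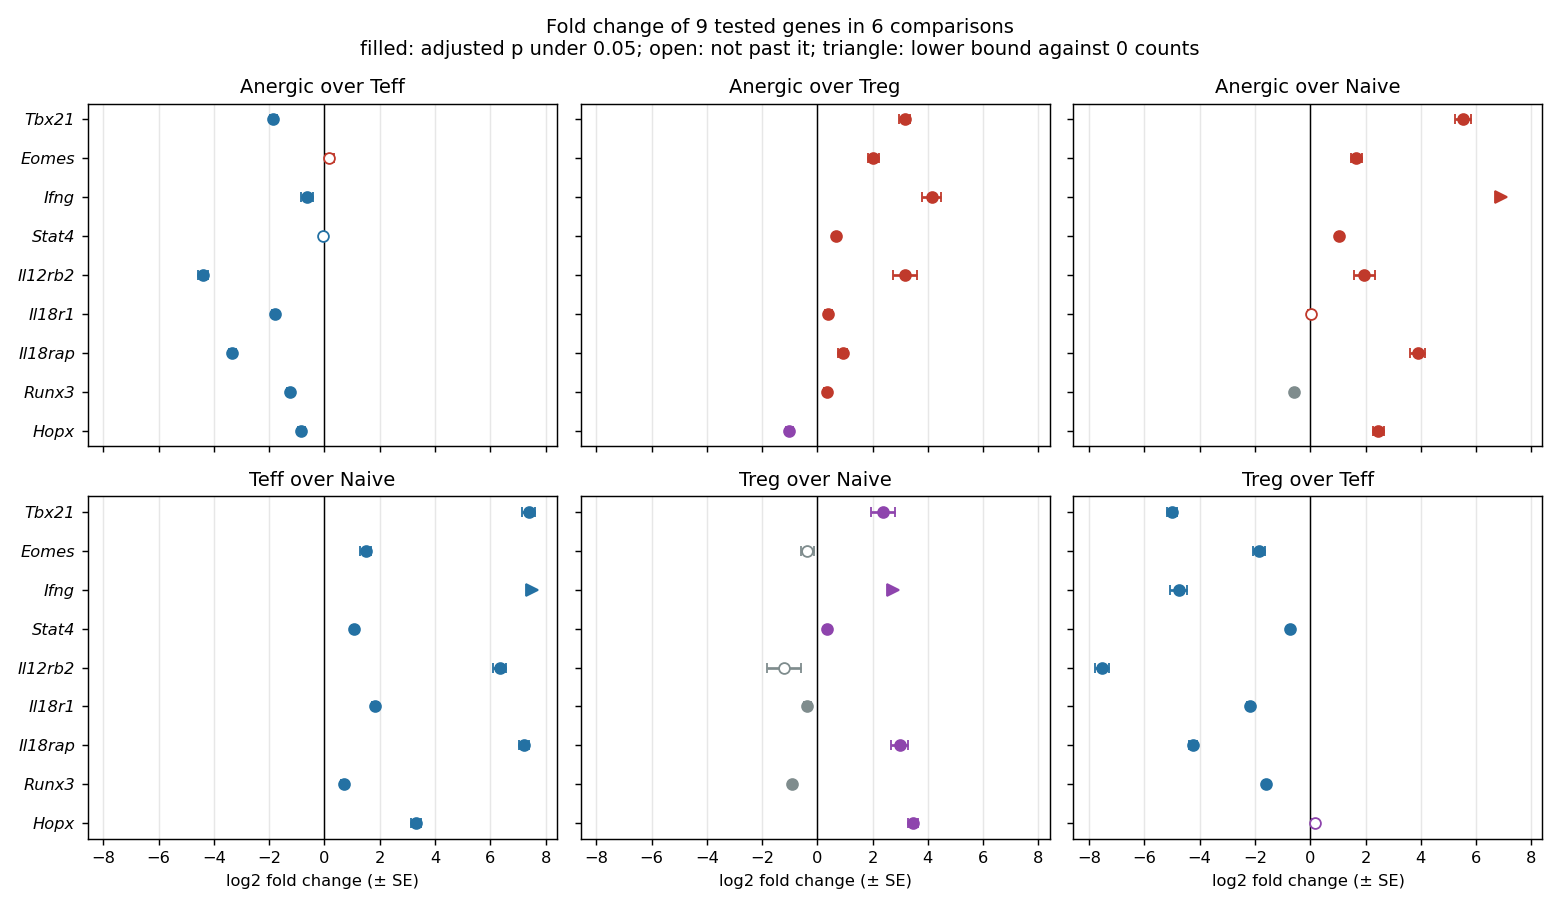
Log2 fold change (horizontal axis) with its standard error for each tested gene in the 6 comparisons of subsets. Filled symbols have an adjusted p under 0.05, open symbols do not, and triangles mark lower bounds against 0 counts. Colours give the subset with the higher level, and for Anergic against Teff all filled symbols lie below 0, from -0.63 for Ifng to -4.39 for Il12rb2.

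Levels of different genes were compared as CPM per kb of annotated exon. The lengths were not adjusted for the overlaps with other genes given above for Stat4, Ifng, Hopx and Il12rb2. Reads there may be missing or misassigned, so the order of genes within a subset is approximate. The same limit holds for Ifng over Tbx21. In Anergic cells Stat4 led with 26.7 ± 1.31, followed by Runx3 (14.6 ± 2), Hopx (14.3 ± 1.59), Tbx21 (13 ± 2.19) and Ifng (12.5 ± 5.28), 4 genes whose mean ± SD ranges overlapped (SD, n = 3). In Treg cells the order began with Hopx at 28.8 ± 2.54, Stat4 at 16.6 ± 0.448 and Runx3 at 11.5 ± 0.835, and Tbx21 was at 1.45 ± 0.393. Tbx21 led in Teff cells at 47 ± 0.758, ahead of Runx3 at 34.9 ± 1.12, Il18r1 at 31.5 ± 0.655 and Stat4 at 27.4 ± 2.62. Naive cells had Runx3 at 21.7 ± 0.495, Stat4 at 13.1 ± 0.747 and Il18r1 at 8.92 ± 0.248, and the other genes were at 2.59 or less. Eomes was at 3.84 ± 1.03 in Anergic and 3.4 ± 0.413 in Teff cells, the lowest of the tested genes in Teff cells.

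**Figure D4:**
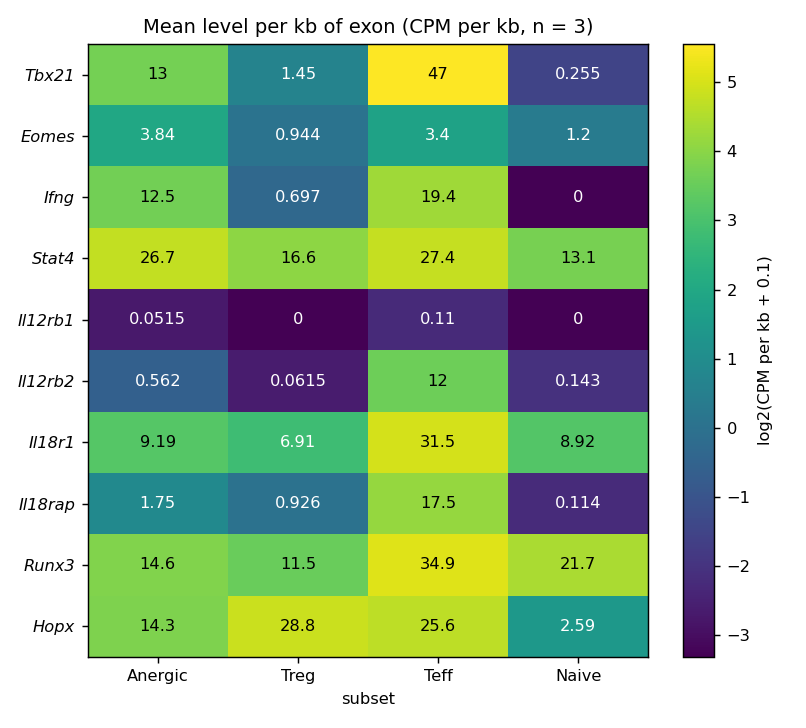
Level of each gene per kb of exon (rows) in the 4 subsets (columns), with colour on a log2 scale and the mean CPM per kb of 3 libraries written in each cell. Tbx21 is the leading gene in Teff cells at 47, Stat4 in Anergic cells at 26.7, Hopx in Treg cells at 28.8 and Runx3 in Naive cells at 21.7.

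Several of these genes are also used by natural killer (NK) and innate-like T cells. The summed level of 11 markers of those cells was 27.9, 33.2 and 44.6 CPM in the Anergic libraries, 4.55, 5.7 and 6.11 CPM in Treg, 260, 197 and 195 CPM in Teff and 8.13, 8.3 and 8.04 CPM in Naive libraries. Like Tbx21, Il12rb2 and Il18rap, the sum was highest in Teff and next in Anergic cells. Of the 11 markers 7 were tested, and Anergic cells had 1 higher and 6 lower than Teff cells (26.6% of all genes called, 12.7% lower). Zbtb16, the factor that defines innate-like T cells, was at 23.1 CPM in Anergic, 0.441 in Treg cells, 99.9 in Teff cells and 0.482 in Naive cells. Klrb1c, which encodes the NK receptor NK1.1, was at 4.75, 0.421, 38.9 and 0 CPM in the same order. Zbtb16 alone made up most of the mean Anergic sum of 35.2 CPM. The NK receptor genes Klrk1 and Klrc1 were at 0.441 and 0.324 CPM in Anergic cells and at 41.1 and 23.3 CPM in Teff cells. Trdc, a gamma delta T cell receptor gene, was higher in Anergic than in Teff cells (5.12 against 2.34 CPM, adjusted p = 0.0296), and the NK receptor gene Klrd1 was lower in Anergic than in Naive cells (0.423 against 4.2 CPM, adjusted p = 4.81e-06). Ncr1, the defining NK cell receptor, had 1 count in Teff libraries, 1 in Naive and 0 in Anergic and Treg libraries. Counts were 0 in all libraries of a subset for 1 of the 11 markers in Anergic, 4 in Treg cells, 0 in Teff cells and 6 in Naive cells.

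Within the Anergic libraries, library 1 had the lowest marker sum and library 3 the highest. Library 1 held the highest Anergic level of 5 of the 9 genes (Tbx21, Eomes, Ifng, Stat4 and Il12rb2), library 3 that of 3 (Il18r1, Il18rap and Runx3), and library 2 that of Hopx. The part of innate-like cells in the levels of the 9 genes was not tested.

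**Figure D5:**
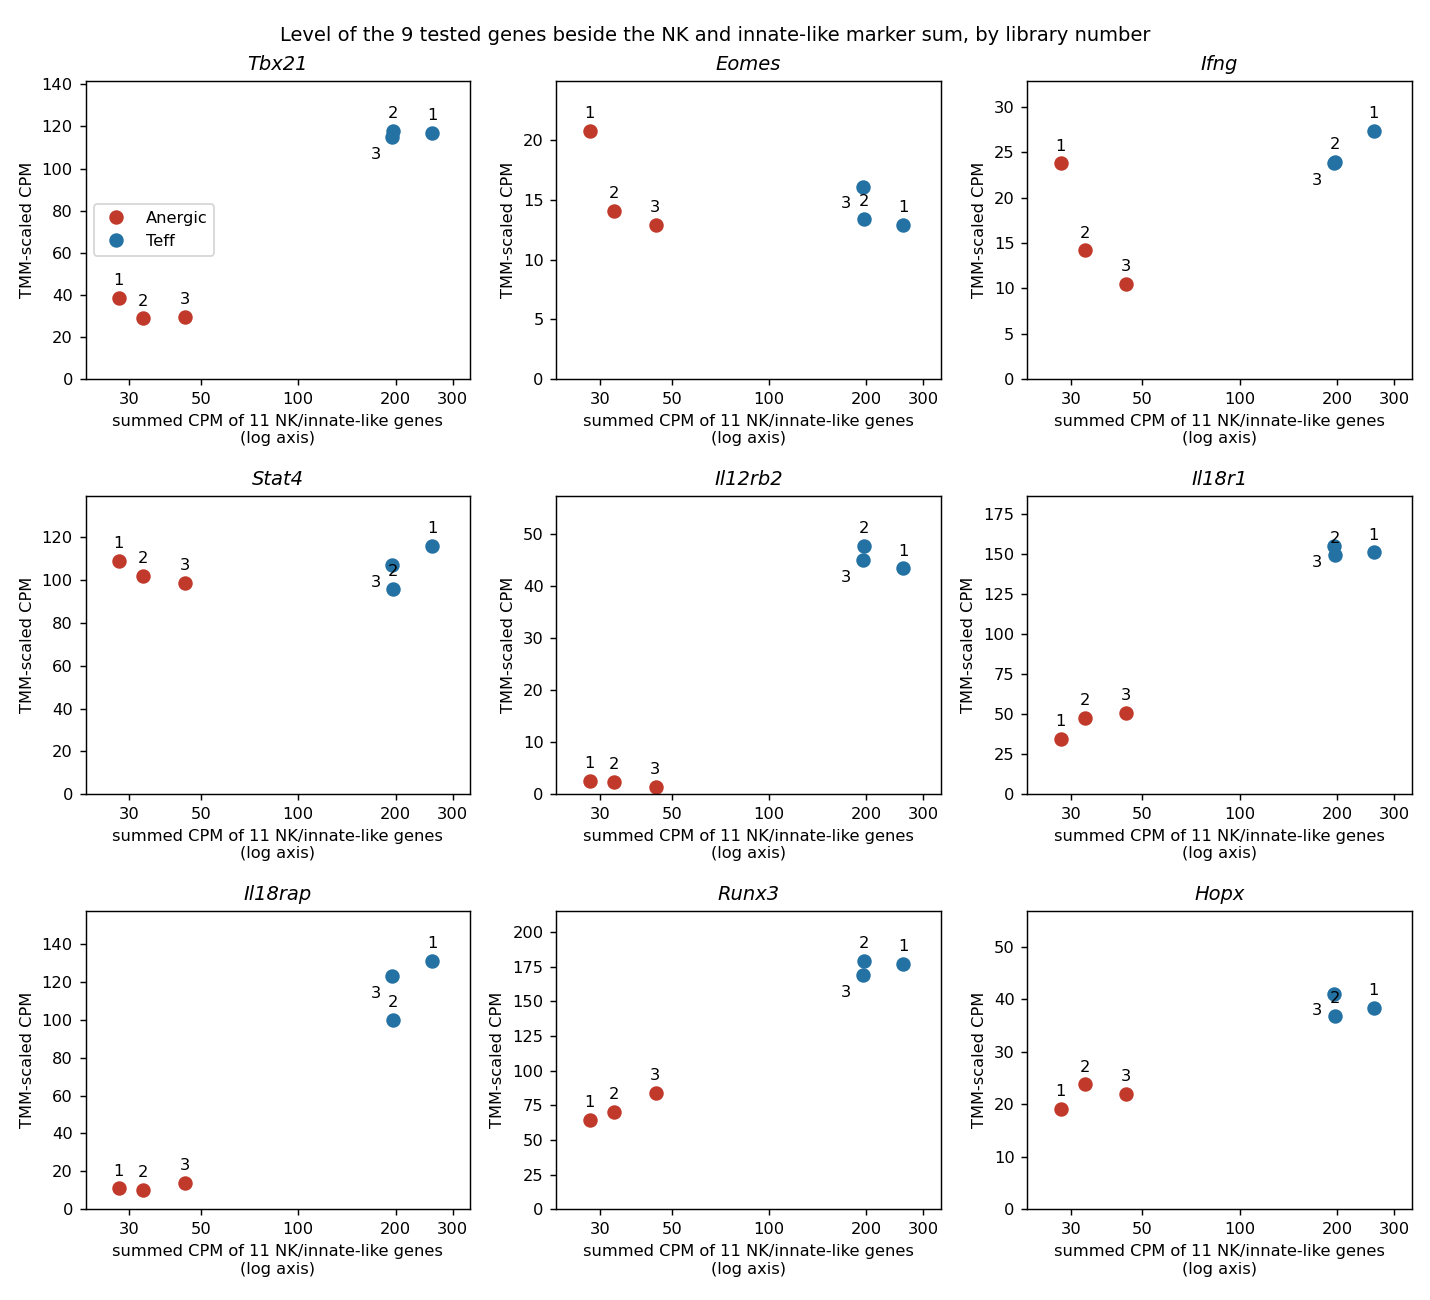
Level in CPM of the 9 tested genes (vertical axes, 1 panel per gene) beside the summed CPM of 11 NK and innate-like T cell markers (log horizontal axes) in the 3 Anergic and 3 Teff libraries, labelled by library number. Anergic libraries lie at marker sums of 27.9 to 44.6 and Teff libraries at 195 to 260, and the highest Anergic level is in library 1, with the lowest marker sum, for 5 genes and in library 3, with the highest, for 3 genes.

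Of 19 Th1 cofactors and T-bet target genes, 14 were tested. Anergic cells had 4 higher and 10 lower than Teff cells (26.6% of all genes called, median log2 fold change -1.63 against 0.00 over all tested genes). The lower ones with the smallest adjusted p were Cxcr6, a homing receptor (20.6 CPM in Anergic against 215 in Teff cells, 10.5-fold, adjusted p = 2.55e-16), Ccl5, a chemokine (6.48 against 103, 16.1-fold, adjusted p = 1.1e-15), and Id2, an inhibitor of E proteins (107 against 252, 2.35-fold, adjusted p = 7.13e-14). The higher ones were led by the cytokine gene Lta (15.1 against 8.85, 1.71-fold, adjusted p = 0.000544), the repressor Zeb2 (13.3 against 7.19, 1.84-fold, adjusted p = 0.00711) and Tnf (36.5 against 27.6, 1.32-fold, adjusted p = 0.0148). The list's direction between Anergic and Teff cells was therefore not shared by all members.

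Against Treg cells, Anergic cells had 8 of the 14 higher and 4 lower (31.0% of all genes called). Id2 was 7.28-fold higher (adjusted p = 1.72e-18), and the T-bet target Cxcr3, a chemokine receptor of Th1 cells, was at 90.2 CPM in Anergic and 13 CPM in Treg cells (adjusted p = 2.91e-16). Among the lower ones were Il2rb, an IL-2 receptor chain (303 CPM in Anergic against 556 in Treg cells, adjusted p = 2.07e-10), and the cytotoxic genes Prf1 (1.21 against 8.18, adjusted p = 2.85e-09) and Gzmb (0.245 against 4.72, adjusted p = 2.29e-06). Against Naive cells 13 were higher and 1 lower in Anergic cells (46.2% of all genes called), 12 higher and 1 lower in Teff cells (34.9%), and 8 higher and 3 lower in Treg cells (32.8%). The 1 lower gene in Anergic and in Teff cells was Prf1, which encodes perforin, at 1.21 CPM in Anergic, 21.7 in Teff and 32.8 CPM in Naive cells. Treg cells had 1 of the 14 higher and 11 lower than Teff cells (29.1% called).

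Among 15 IL-12 and IL-18 cytokine and signalling genes, 12 were tested. Anergic cells had 1 higher and 3 lower than Teff cells (26.6% of all genes called), 2 higher and 4 lower than Treg cells (31.0%), and 6 higher and 2 lower than Naive cells (46.2%). The median log2 fold changes were -0.07, -0.15 and 0.16 in these comparisons. Jak2, the kinase of Il12rb2, was the 1 gene higher in Anergic than in Teff cells, at 275 ± 14.5 CPM in Anergic, 121 ± 8.81 in Treg cells, 223 ± 12.2 in Teff cells and 111 ± 12.1 in Naive cells (adjusted p = 0.0036 for Anergic against Teff and 1.08e-12 for Anergic against Naive). Of the IL-18 pathway, the inhibitory Irak3 (3.15 CPM in Anergic against 8.02 in Teff cells, adjusted p = 0.000108) and the kinase gene Irak2 (15.8 against 26, adjusted p = 0.000141) were lower in Anergic cells. Teff cells had 7 higher and 0 lower than Naive cells (34.9% called), and Treg cells had 4 higher and 2 lower (32.8%). Against Teff cells, Treg cells had 3 higher and 5 lower (29.1%). The cytokine genes themselves were near 0: Il12a had 0 counts in all libraries, and Il18 was at 0.898 CPM in Anergic, 0.589 in Treg cells, 0.245 in Teff cells and 0.101 in Naive cells.

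All 8 genes of a list for interferon gamma sensing were tested. Anergic cells had 1 higher and 3 lower than Teff cells (26.6% of all genes called), 1 higher and 5 lower than Treg cells (31.0%), and 1 higher and 5 lower than Naive cells (46.2%), with Jak2 the higher gene each time. The median log2 fold changes were -0.08, -0.39 and -0.26. The receptor chain Ifngr1 was at 33.1 CPM in Anergic, 170 in Treg cells, 116 in Teff cells and 67.6 CPM in Naive cells (3.52-fold lower in Anergic than in Teff cells, adjusted p = 3.15e-11). Its partner Ifngr2 was at 9.54 CPM in Anergic, 34 in Treg cells, 8.89 in Teff cells and 47 CPM in Naive cells (5.28-fold lower in Teff than in Naive cells, adjusted p = 5e-14). Teff cells had 2 higher and 2 lower than Naive cells (34.9% called), Treg cells 3 higher and 2 lower than Naive (32.8%) and 4 higher and 1 lower than Teff cells (29.1%).

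Among RUNX and T-box relatives, 5 of 6 were tested, and Anergic cells had 2 higher and 0 lower than Teff cells (26.6% of all genes called). Runx2 was at 26.5 ± 4.26 CPM in Anergic, 14.4 ± 2.13 in Treg cells, 19.4 ± 2.05 in Teff cells and 1.09 ± 0.139 in Naive cells, and was higher in Anergic than in Teff cells (1.37-fold, adjusted p = 0.0144), where Runx3 was lower. Tbx6 was the other relative called there (5.97 CPM in Anergic against 3.32 in Teff cells, adjusted p = 0.0142). Runx1 was at 155 ± 12.4 CPM in Anergic, 121 ± 3.63 in Treg cells, 161 ± 14.4 in Teff cells and 125 ± 5.93 in Naive cells, and was 1.24-fold higher in Anergic than in Naive cells (adjusted p = 0.00112).

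The tested genes most like each member in pattern were found by the root mean square difference of log2 levels, each gene centred over the 12 libraries, among 8913 genes. For Tbx21 these were AC153498.1 (0.49), Ifng (0.73) and Plekhg3 (0.77). For Ifng they were AC153498.1 (0.34), Tnfsf14 (0.40) and Trpm6 (0.57). Il12rb2 was closest to Cd93 (0.48), Klrc1 (0.50) and Atp8a2 (0.53), and Il18rap to Nkg7 (0.44), Ccl5 (0.45) and Slamf7 (0.56). Eomes was closest to Slc9a9 (0.26), Inafm2 (0.29) and Dusp6 (0.30), and Stat4 to Incenp (0.11), Heg1 (0.11) and Arntl (0.12). Il18r1 was closest to Ckb (0.23), Arsb (0.24) and Rcbtb2 (0.27), Runx3 to Il7r (0.17), Tagln2 (0.17) and Lmo4 (0.21), and Hopx to Rgs1 (0.39), Hk2 (0.43) and Kdm4d (0.47). The values are comparable only within a member, since the members differ in how widely they vary.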

How the data were processed

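Sorted cells were profiled by total RNA sequencing, 3 libraries per subset. The deposited values are whole-number read counts of genes without normalization, in a column for each library. Kits named in the labels' protocols are QIAGEN RNeasy for the RNA and Takara SMARTer Stranded Total RNA for the libraries. Per the series design text, the pipeline held featureCounts after HISAT2 alignment of reads trimmed by Trimmomatic, with SAMtools and edgeR, on GRCm38 (mm10), per the submitters' processing notes. Which annotation and strand setting were used is not given in the sources used here, and reads of overlapping genes may be assigned to either or to neither.

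From these counts, edgeR 4.0.16 (R 4.3.3) gave the tests: filterByExpr, TMM, a model of subset means over 12 libraries, and glmQLFit with glmQLFTest, two-sided, adjusted p under 0.05. The standard error is the log2 fold change divided by the square root of F. The common biological coefficient of variation was 0.0764. Ratios of 2 genes were tested by exact permutation with SciPy 1.17.1. Exon lengths and positions came from GENCODE M21, and promoters from RefSeq (GRCm38.p6). The fit was tested on simulated data. Library pairs of a subset differed beyond sampling noise (a chi-square of 2.2 to 21.5 per degree of freedom), and none was counted as a duplicate. The Anergic pairs differed most, at 9.65, 14.2 and 21.5, and the highest value of another subset was 7.33 (Naive libraries 1 and 2). These values use total counts without TMM scaling. Those of 14.2 and 21.5 both involve Anergic library 3, which had the lowest TMM factor, 0.871. They may therefore include a difference in composition that TMM corrects, and its part was not tested. The fit shares its estimate of spread among all subsets. Alternatives were DESeq2 1.42.0, its size factors, scaling by total counts, no filter, a filter of 5 CPM in at least 3 libraries, fits to the 2 compared subsets, a replicate block and each library left out. The 10 genes, the gene lists and the tests were chosen with earlier results of these data known. All 10 genes were named in each comparison, from each list up to 3 higher and 3 lower genes with the smallest adjusted p, or a defining marker, and the 3 genes most like each member, with at least 5 CPM in their highest subset. The like genes exclude Gm-numbered predicted, ribosomal, RIKEN, antigen receptor and pseudogene names, while names of other forms, such as AC153498.1, stayed in. The genes around Il12rb1 were chosen after its counts were seen.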

Additional observations from a re-analysis of the deposited data

How the results depend on the processing

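Of 54 results of a gene in a comparison, 47 kept their direction and side of the threshold under each alternative run. Of 1024 alternative values, 1009 did so, 10 lost a call and 5 changed sign, none of these called in either fit. For Anergic against Teff, Eomes gave -0.0663 without Anergic library 1 (to 0.303 with another library left out) and Stat4 0.0278 without Teff library 1 (to -0.115). For Anergic against Naive, Il18r1 gave -0.0119 with scaling by total counts, -0.0183 without Anergic library 2 and -0.0648 without Anergic library 3 (to 0.187 with another left out). The 10 lost calls are those of Ifng (Anergic against Teff), Il18r1 (Anergic against Treg, Treg against Naive) and Runx3 (Anergic against Treg) given above, and beyond fewer samples or the scaling itself the cause was not tested. Leaving out 1 library in turn gave 6 to 7 called members for Anergic against Teff, 8 to 9 for Anergic against Treg, 8 for Anergic against Naive, 9 for Teff against Naive, 6 to 7 for Treg against Naive and 8 for Treg against Teff. Over all tested genes, these runs called 3083 to 3634, 3632 to 4362 and 5564 to 6352 genes in the first 3 of these comparisons. In the last 3 they called 4042 to 4871, 3785 to 4600 and 3234 to 4111 genes. Without a filter, Il12rb1 enters and was called for Teff against Naive (adjusted p = 0.0369) and Treg against Teff (0.0274), on counts of which 10 of 11 came from 1 library. Same-numbered libraries of different subsets deviated together (r from 0.0504 to 0.302, median 0.136, over 0.1 in 14 of 18 pairs). Differently numbered ones did so less (r from -0.251 to 0.215, median -0.0893, over 0.1 in 2 of 36 pairs). Deviations were taken from the mean of each subset, so positive values for same-numbered pairs push the others below 0. The differently numbered pairs are therefore no separate evidence. The main fit did not pair libraries by number, although 11 of 12 correlated best with their own number. Whether the numbers mark a shared animal or batch was not tested. With the replicate block, 7, 9, 8, 9, 7 and 8 members were called in the 6 comparisons in the order above, and 3987 genes for Anergic against Teff (3566 without it). Over all alternatives, the block among them, 3632 to 4610 genes were called for Anergic against Treg and 5252 to 6548 for Anergic against Naive. The ranges were 4042 to 5077 for Teff against Naive, 3785 to 4796 for Treg against Naive and 3234 to 4343 for Treg against Teff. Depth limits Tbx21 in Naive cells and Il12rb2 in Treg and Naive cells, where a library held few counts. The same holds for Il18rap in Naive libraries (4, 8 and 5 counts) and Ifng in Treg libraries (9, 4 and 11 counts). The Il18rap folds against Naive cells and the Naive ratio of Il18rap over Il18r1 rest on these few counts.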

Other observations

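Genes next to these loci, which the lists above do not hold, were examined for the same subsets. Tbkbp1, which encodes a binding partner of the kinase TBK1 and lies 20839 bases from Tbx21, was at 3.45 ± 0.575 CPM in Anergic, 0.238 ± 0.309 in Treg cells, 16.3 ± 1.56 in Teff cells and 0.234 ± 0.228 in Naive cells (SD, n = 3). It was 4.69-fold lower in Anergic than in Teff cells (adjusted p = 6.01e-07) and 14.2-fold higher in Anergic than in Treg cells (adjusted p = 2.45e-06), the directions of Tbx21. Osbpl7, 29166 bases away on the other side of Tbx21, was at 32.5 CPM in Anergic, 32 in Treg cells, 33.3 in Teff cells and 29.6 in Naive cells and was not called in any of the 6 comparisons. Il1rl1, which encodes the IL-33 receptor ST2 and ends 136 bases before Il18r1, had another order from Il18r1 and Il18rap: it was at 1.19 ± 0.263 CPM in Anergic, 11 ± 1.96 in Treg cells, 3.44 ± 0.406 in Teff cells and 0.0506 ± 0.0876 in Naive cells, and was 3.21-fold higher in Treg than in Teff cells (adjusted p = 6.97e-06). Of 18 protein-coding neighbours of the 10 genes, 11 were tested, and for Anergic against Teff cells 0 of them were higher and 3 lower, where 26.6% of all genes were called.

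Among 14 related cytokine receptors, 12 were tested, and Anergic cells had 5 higher and 2 lower than Teff cells (26.6% of all genes called). The shared IL-6 family chain Il6st was at 365 CPM in Anergic and 189 CPM in Teff cells (adjusted p = 6.53e-12), and the IL-1 decoy receptor gene Il1r2 was at 10.2 CPM in Anergic and 0.785 CPM in Teff cells (12.3-fold, adjusted p = 2.29e-07). Against Treg cells, Anergic cells had 2 higher and 5 lower (31.0% called), with the IL-36 receptor gene Il1rl2 at 13.2 CPM in Anergic and 1.65 CPM in Treg cells (adjusted p = 1.17e-10). Treg cells had 8 higher and 2 lower than Teff cells (29.1% called).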
